A study of Canis lupus familiaris with 6 samples.

Results

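Chemokine transcripts were followed in MDCK cells, an established epithelial line of dog kidney origin, in a series whose title concerns cell death that depends on NF-κB when magnesium in the cell decreases. The genes are 10 ligands that kidney epithelial cells can make: CCL2, CCL5, CCL7, CCL20, CCL28, CX3CL1, CXCL8, CXCL10, CXCL12 and CXCL16. They were taken by symbol from the 41401 gene symbols in the files, and all 10 were present. Of these, 8 had a mean of at least 1 FPKM (fragments scaled by transcript length and library size) over the 6 libraries and entered the tests, as did 12125 genes in all. CCL28 and CXCL12 stayed below that mean and are described by their levels.

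Wild-type MDCK cells and 2 mutant clones, labelled PRL2-/-; PRL1+/- and numbered 1 and 2, each received control siRNA or PRL1 siRNA. RNA was taken 18 h after the second of the transfections that all cells went through, and each line gave 1 library per siRNA. PRL1 and PRL2 are phosphatases that bind CNNM magnesium transporters, and PTP4A1 encodes PRL1. The mutant genotype is therefore represented by 2 clones, and wild type by 1 library of each treatment. The labels do not say how the clones were made or that any library came from a repeated culture, so p-values cover only the variation among these lines, part of which may be technical.

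Chemokines are small secreted proteins that bind G-protein-coupled receptors and direct the migration of leukocytes along a gradient. They are grouped by the spacing of their N-terminal cysteines into CC, CXC and CX3C families. Inflammatory members are induced by NF-κB, interferon-regulated factors or both, homeostatic members are made steadily to position cells, and CX3CL1 and CXCL16 are made as membrane proteins on a mucin stalk, from which proteases can release the chemokine domain. In the injured kidney, tubular epithelium is a known source of CCL2, CCL5, CCL20, CXCL10 and CX3CL1.

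The targeted transcript was lower in each knockdown library. PTP4A1 was at 63.5, 61.7 and 69.9 FPKM under control siRNA and 33.1, 37.8 and 37.8 after PRL1 siRNA in wild type, clone 1 and clone 2. PTP4A2, which encodes PRL2, was at 72.7, 80.4 and 56.7 FPKM under control siRNA and 59.0, 69.1 and 48.3 after knockdown, and fell by 0.25 ± 0.04 log2 units (limma over 3 lines, adjusted p = 0.00572). Its transcript was present in the clones labelled PRL2-/-, and transcript levels do not check the genotype of the clones. The 10 epithelial markers summed to 2132 to 3041 FPKM under control siRNA and 2349 to 3311 after knockdown, with EPCAM between 272 and 358 FPKM. Their levels differed widely, and CDH16 was the lowest, between 3.08 and 7.82 FPKM. The leukocyte genes PTPRC and CD3E were listed at 0 in all libraries, and the 10 leukocyte markers summed to 6.03 to 7.11 FPKM under control siRNA and 5.91 to 7.82 after knockdown, most of it CD14. Fibroblast markers summed to at most 0.475 FPKM, with LUM and THY1 listed at 0, and endothelial markers to at most 1.25 FPKM. In bulk RNA, more cells making a transcript and more transcript per cell cannot be told apart.

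Knockdown of PRL1 was followed by higher levels of most of these chemokines, with the largest estimates among the inflammatory CC ligands. The contrast was taken within lines, by limma on log2(FPKM + 1) with the line as a covariate, so that the 3 lines serve as replicates. "Rose" and "fell" refer to an adjusted p under 0.05 in this test. CCL2, CCL7, CCL5, CCL20, CXCL10, CXCL16 and CX3CL1 rose, CXCL8 did not pass, and no chemokine fell. Thus 7 of 8 tested chemokines were called higher, against 17.6% of all tested genes. Their median difference was 1.02 log2 units, against -0.01 over all tested genes. All 8 were higher in the knockdown library of each of the 3 lines, as were 31.6% of all tested genes. The members were chosen with earlier results of these data known, so these shares describe them and are not an independent test. CCL5 entered the test only through its high level in the knockdown libraries of the clones, so its call is not independent of the filter, and among the other 7 tested chemokines 6 rose. These calls depend on the setting: when all 27931 genes above 0 were tested, 1 chemokine passed (CXCL16, adjusted p = 0.0425; CCL2 0.0613, CCL7 0.066), and without the line term 0 passed.

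**Figure D1:**
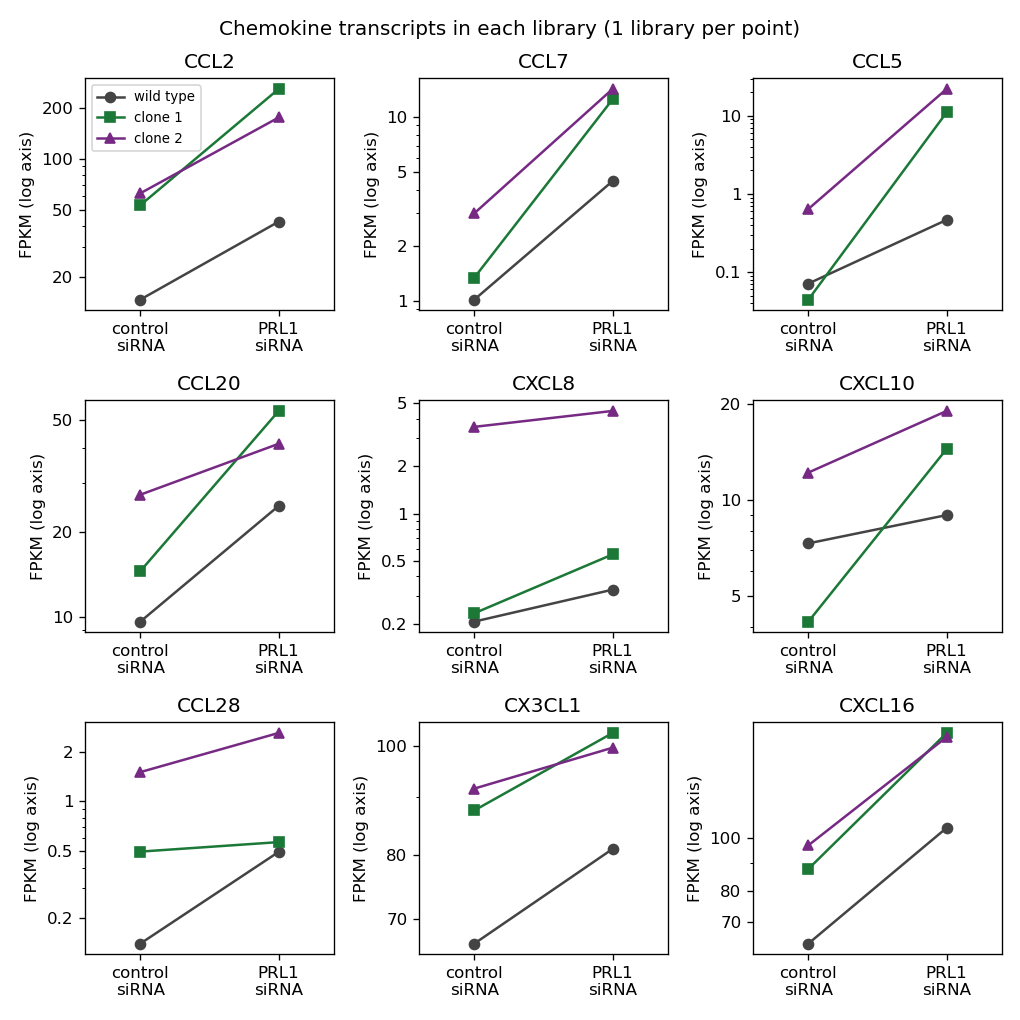
FPKM on a log axis for 9 chemokines in each of the 6 libraries, with a line joining the control and PRL1 siRNA libraries of wild type, clone 1 and clone 2. Every joined pair goes up; CCL7 and CXCL16 are the tested genes whose lowest knockdown library lies above their highest control library. CXCL12, listed at 0 in all libraries, is not drawn.

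CCL2, the main attractant of monocytes, had the highest level among the inflammatory ligands. Under control siRNA its level was 14.8 FPKM in wild type, 53.3 in clone 1 and 62.6 in clone 2, and after knockdown 42.6, 258 and 175 FPKM. Each knockdown library was well above its own control, while the wild-type knockdown library stayed below both clone controls, so the treatments overlapped. The rise was 1.73 ± 0.16 log2 units (SE, 3 lines, 95% interval 1.33 to 2.13, limma adjusted p = 0.00194). As ratios of FPKM the increase was 2.88-fold in wild type, 4.84-fold in clone 1 and 2.79-fold in clone 2. By size of the estimated rise CCL2 ranked 12 of 12125 tested genes, CCL7 ranked 9 and CCL5 ranked 6.

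CCL7, another monocyte attractant, lies next to CCL2 in the dog assembly UU_Cfam_GSD_1.0. Its level was lower, at 1.02, 1.34 and 3.00 FPKM under control siRNA in wild type, clone 1 and clone 2 and at 4.49, 12.5 and 14.2 FPKM after knockdown. The knockdown libraries all lay above the control libraries, a separation seen in 2 of the 8 tested chemokines and in 12.6% of all tested genes. CCL7 rose by 1.97 ± 0.19 log2 units (95% interval 1.48 to 2.45, limma adjusted p = 0.00215), and the FPKM ratios were 4.42 in wild type, 9.34 in clone 1 and 4.74 in clone 2. CCL2 and CCL7 are related in sequence, and how shared fragments were assigned is not given in the sources used here.

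CCL5, which attracts T cells and monocytes, was nearly silent before knockdown. Under control siRNA it was at 0.0713 FPKM in wild type, 0.0445 in clone 1 and 0.643 in clone 2. After knockdown it reached 0.467 FPKM in wild type, 11.1 in clone 1 and 22.1 in clone 2. High expression was thus reached in the clones, whereas the wild-type knockdown library stayed below the control library of clone 2. The mean rise of 2.60 ± 0.65 log2 units (95% interval 0.99 to 4.22, limma adjusted p = 0.0267) averages 0.45 in wild type with 3.54 in clone 1 and 3.82 in clone 2, and it was 4.30 with a pseudocount of 0.1 (adjusted p = 0.0099). Without clone 1 the estimate was 2.13 (adjusted p = 0.14) and without clone 2 it was 1.99 (adjusted p = 0.105), so the call was lost when either clone was left out. Control values below 0.1 FPKM stand for few fragments, and no ratio of FPKM is given for them.

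CCL20 attracts CCR6-bearing lymphocytes and dendritic cells to epithelia. Its control and knockdown levels were 9.62 and 24.8 FPKM in the wild-type pair, 14.5 and 54.0 in the clone 1 pair, and 27.2 and 41.3 in the clone 2 pair. The control library of clone 2 lay above the wild-type knockdown library, so the treatments overlapped across lines. The rise was 1.23 ± 0.22 log2 units (95% interval 0.69 to 1.77, limma adjusted p = 0.00986). The FPKM ratio was 3.71 in clone 1, 2.58 in wild type and 1.52 in clone 2, where the starting level was highest.

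CXCL10, an interferon-inducible ligand of CXCR3, responded unevenly. It was at 7.33 and 8.99 FPKM in the wild-type pair, 4.17 and 14.5 in the clone 1 pair, and 12.2 and 19.0 in the clone 2 pair, control first. The wild-type pair differed by 0.26 log2 units and the clone 1 pair by 1.58. The mean rise was 0.82 ± 0.24 log2 units (95% interval 0.22 to 1.41, limma adjusted p = 0.0438). This call was lost without clone 1 (0.43, adjusted p = 0.0606) and without clone 2 (0.92, adjusted p = 0.092), and with no intensity trend in the variances (adjusted p = 0.0617).

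CXCL8, the neutrophil attractant also called interleukin-8, differed more between lines than between treatments. The wild-type pair had 0.207 and 0.330 FPKM, the clone 1 pair 0.234 and 0.552, and the clone 2 pair 3.56 and 4.49, control first. Both clone 2 libraries lay above the other 4. Knockdown gave 0.25 ± 0.08 log2 units (95% interval 0.04 to 0.46), which did not pass (limma adjusted p = 0.0647), although it did with no intensity trend (adjusted p = 0.0238). Its mean over the libraries exceeded 1 FPKM through clone 2.

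Among homeostatic ligands, CCL28, a mucosal chemokine of exocrine and airway epithelium, was low. The wild-type pair had 0.140 and 0.497 FPKM, the clone 1 pair 0.499 and 0.569, and the clone 2 pair 1.50 and 2.59, control first. With a mean of 0.966 FPKM it fell just short of the filter, and in a fit without the filter its difference was 0.33 ± 0.12 log2 units (95% interval -0.05 to 0.70, limma adjusted p = 0.235). Like CXCL8, it was highest in both clone 2 libraries. CXCL12, the CXCR4 ligand that stroma makes steadily, was listed at 0 in all 6 libraries. None of 10 widely used genes looked up beside it was listed at 0.

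Among the 10 genes, the membrane-bound ligands were the most abundant before knockdown. CXCL16 was at 63.8, 87.7 and 97.0 FPKM under control siRNA in wild type, clone 1 and clone 2, and at 105, 157 and 154 FPKM after knockdown. All knockdown libraries lay above all control libraries. It rose by 0.73 ± 0.04 log2 units (95% interval 0.62 to 0.84, limma adjusted p = 0.00127). Its FPKM ratios were similar in the 3 lines, at 1.64 in wild type, 1.79 in clone 1 and 1.59 in clone 2.

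CX3CL1, or fractalkine, which tethers CX3CR1-bearing monocytes, changed least among the genes that rose. Its control and knockdown levels were 66.6 and 80.9 FPKM in the wild-type pair, 87.6 and 103 in the clone 1 pair, and 91.6 and 99.7 in the clone 2 pair. The wild-type knockdown library lay below both clone controls. The rise was 0.21 ± 0.04 log2 units (95% interval 0.10 to 0.31, limma adjusted p = 0.0148), at rank 1831 of the tested genes. Without clone 1 it did not pass (0.20, adjusted p = 0.0956).

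**Figure D2:**
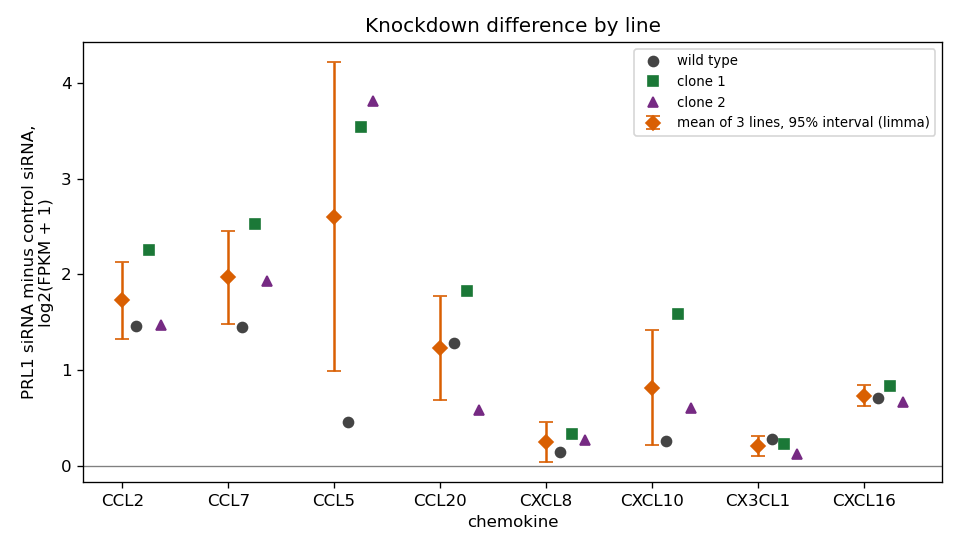
Difference between the PRL1 siRNA and control siRNA libraries in log2(FPKM + 1) for the 8 tested chemokines. Small symbols are the lines, diamonds the mean of 3 lines and bars its 95% interval from limma. All line values are above 0; those of CXCL16 lie between 0.66 and 0.83, and those of CCL5 between 0.45 and 3.82.

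Line by line, 1 library was compared with 1 library and no test was made. In wild type 3 of the 8 tested chemokines were at least 2-fold higher after knockdown on the log2(FPKM + 1) scale (CCL2, CCL7 and CCL20), against 0.495% of all tested genes. In clone 1 there were 5, with CCL5 and CXCL10 in addition, against 0.759%. In clone 2 there were 3 (CCL2, CCL7 and CCL5), against 0.536%. CCL5 entered the tested set only through the knockdown libraries of the clones. Its place in the clone counts and medians is therefore not independent of the filter. Without it, CCL2, CCL7, CCL20 and CXCL10 remain in clone 1, and CCL2 and CCL7 in clone 2. No tested chemokine was at least 2-fold lower in any line. The median difference of the 8 chemokines was 0.58 log2 units in wild type, 1.70 in clone 1 and 0.63 in clone 2.

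**Figure D3:**
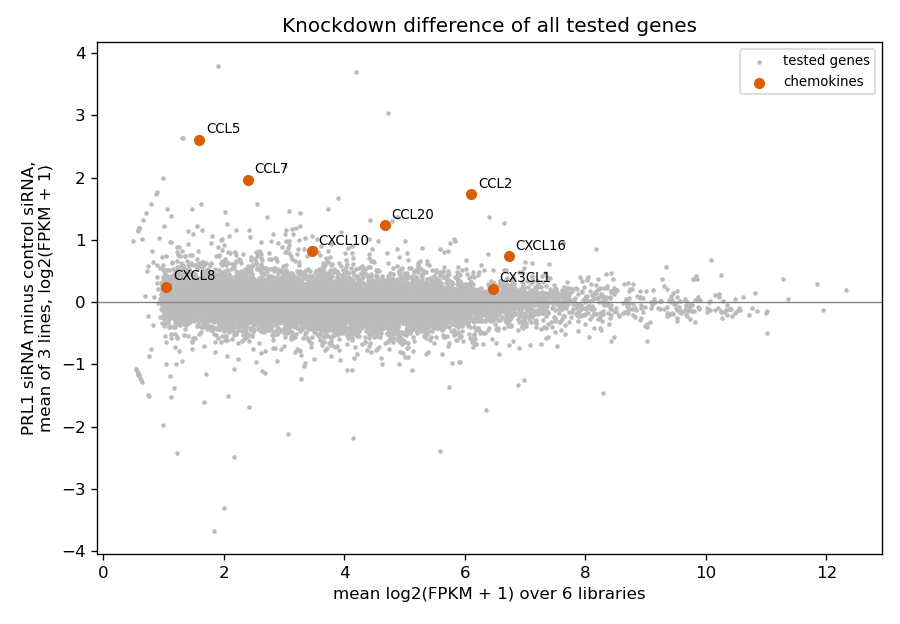
Mean knockdown difference over 3 lines against mean level, both in log2(FPKM + 1), for 12125 tested genes (grey) and the 8 tested chemokines (orange). CCL5, CCL7 and CCL2 lie at the upper edge at 2.60, 1.97 and 1.73, while CX3CL1 and CXCL8 lie within the bulk at 0.21 and 0.25.

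Considering the clones alone gave the same order with different certainty. In limma without pairing, 0 of 8 chemokines passed, and 0% of the tested genes did. The smallest adjusted p over all genes was 0.106 and 2575 genes had an unadjusted p under 0.05. With the clone number as replicate block, 7 of the 8 chemokines passed, all higher, against 14.3% of the tested genes called higher. This paired fit has 1 residual degree of freedom. The count includes CCL5, which passed the filter through the knockdown libraries of these same clones, and without it 6 of 7 passed. CCL5 had the largest estimate, 3.68 ± 0.09 log2 units (SE, 2 clones, paired limma adjusted p = 0.00634, 0.106 without pairing). CCL7 was at 2.23 ± 0.16 (paired 0.00673, unpaired 0.106) and CCL2 at 1.86 ± 0.19 (paired 0.00961, unpaired 0.106). CXCL8 did not pass in either fit (0.30 ± 0.08, paired adjusted p = 0.0554).

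Whether the clones responded more than wild type was tested as an interaction in limma, in which the lone wild-type libraries are assumed to vary like the clones. It called 0% of the tested genes and 0 chemokines, with 136 genes at an unadjusted p under 0.05. CCL5 had the largest difference among the chemokines, 3.22 ± 0.72 log2 units (95% interval 1.21 to 5.23, unadjusted p = 0.0114, limma adjusted p = 1.00). However, CCL5 passed the filter only through the knockdown libraries of the clones, which enter this contrast. Its estimate, interval and p-values are therefore not independent of the filter. For CCL2 the difference was 0.40 ± 0.38 (95% interval -0.67 to 1.46) and for CCL7 it was 0.78 ± 0.50 (95% interval -0.62 to 2.19). Leaving out 1 mutant library moved these between 0.12 and 0.67 for CCL2 and between 0.40 and 1.17 for CCL7. For CXCL16 it was 0.04 ± 0.12 (95% interval -0.30 to 0.39). A larger response of the clones was thus not established for any chemokine, and the intervals of CCL2 and CCL7 leave room for differences of more than 2-fold.

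Under control siRNA, most chemokines stood higher in the clones than in wild type. Both clone libraries were above the wild-type library for 6 of the 8 tested chemokines, which held for 43.6% of all tested genes, and also for CCL28. On the log2(FPKM + 1) scale CCL2 had the largest mean difference of the tested chemokines, 1.90 ± 0.27 log2 units (SE, 95% interval 1.14 to 2.65, limma adjusted p = 0.245). Its FPKM was 3.60 times that of wild type in clone 1 and 4.23 times in clone 2. As FPKM ratios, low genes went further in clone 2: CXCL8 was at 17.2 times wild type (1.13 times in clone 1) and CCL28 at 10.8 times (3.58 in clone 1). CXCL16 was 0.53 ± 0.09 log2 units higher (95% interval 0.28 to 0.77) and CX3CL1 0.42 ± 0.07 (95% interval 0.23 to 0.62), each with a limma adjusted p of 0.25. CCL20 was 0.98 ± 0.41 log2 units higher (95% interval -0.18 to 2.14), CCL7 0.60 ± 0.36 (95% interval -0.39 to 1.60) and CXCL8 0.97 ± 1.15 (95% interval -2.24 to 4.18). With 1 clone at a time these were 0.55 and 1.41 for CCL20, 0.21 and 0.99 for CCL7, and 0.03 and 1.92 for CXCL8, clone 1 first. CXCL10 was lower than wild type in clone 1 and higher in clone 2. CCL5 was below 0.1 FPKM in both wild type (0.0713) and clone 1 (0.0445), too low to order them, and was higher in clone 2 (0.643 FPKM). No chemokine passed in this comparison, where limma called 0% of the tested genes and 1632 had an unadjusted p under 0.05.

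**Figure D4:**
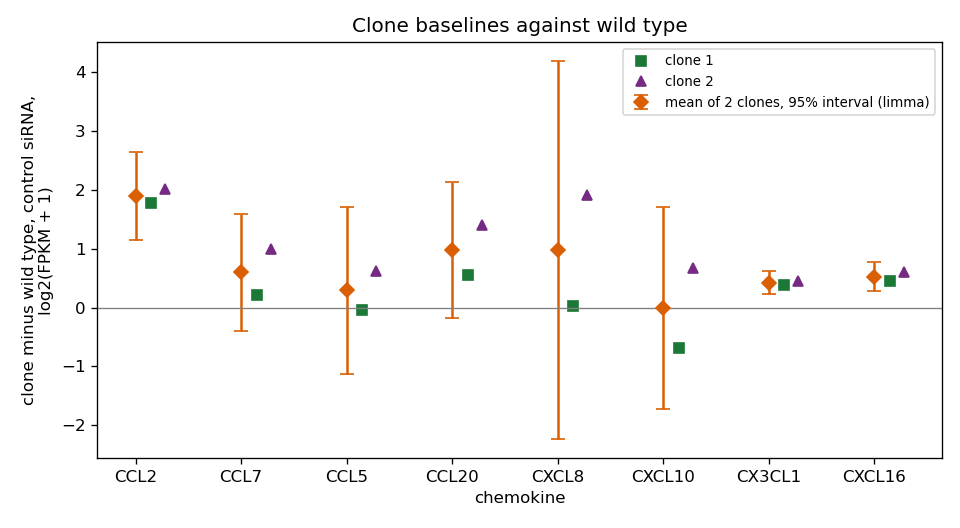
Difference between each clone and wild type under control siRNA in log2(FPKM + 1) for the 8 tested chemokines. Squares and triangles are clones 1 and 2, diamonds their mean and bars its 95% interval from limma. The clones lie close together for CCL2 (1.78 and 2.01), CX3CL1 (0.39 and 0.45) and CXCL16 (0.45 and 0.60) and far apart for CXCL8 (0.03 and 1.92).

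Between the clones, clone 2 had the higher baseline for all 9 detected chemokines. This compares 1 library with 1 library, and the share of all tested genes that were higher in clone 2 was not computed. For CCL5 (0.0445 and 0.643 FPKM) no ratio is taken, because the clone 1 value stands for few fragments. Among the other detected chemokines the clones were furthest apart, as a ratio of FPKM, for CXCL8 (0.234 and 3.56). They were close for CX3CL1 (87.6 and 91.6 FPKM), CXCL16 (87.7 and 97.0) and CCL2 (53.3 and 62.6). After knockdown the order of the clones turned for CCL2, CCL20, CX3CL1 and CXCL16, for which clone 1 was then the higher, by little for CXCL16 (157 and 154 FPKM).

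The order of levels, which FPKM allows because it is scaled by length, changed with treatment. In the clones under control siRNA, CXCL16 (92.4 ± 6.57 FPKM, SD, n = 2) and CX3CL1 (89.6 ± 2.84) did not differ beyond their spread, followed by CCL2 (57.9 ± 6.59), CCL20 (20.9 ± 8.94) and CXCL10 (8.19 ± 5.69). Below them CCL7, CXCL8, CCL28 and CCL5, with means from 2.17 down to 0.344 FPKM, lay within the spread of their neighbours. After knockdown CCL2 came first (216 ± 58.5 FPKM), ahead of CXCL16 (155 ± 1.91) in each clone by a mean gap close to its own SD, then CX3CL1 (101 ± 2.17) and CCL20 (47.6 ± 9.01). CXCL10 (16.8 ± 3.23), CCL5 (16.6 ± 7.80) and CCL7 (13.4 ± 1.21) could then not be ordered. In wild type CX3CL1 (66.6 FPKM) and CXCL16 (63.8) led under control siRNA, and CXCL16 (105) led after knockdown.

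Summed over the 10 genes, chemokine transcript was at 164 and 268 FPKM in the wild-type pair, 249 and 610.4 in the clone 1 pair, and 299 and 532 in the clone 2 pair, control first. CCL2 made up 9.04% of the sum in the wild-type control library and 15.9% after knockdown. Its share was 21.4% and 42.2% in the clone 1 pair and 20.9% and 32.9% in the clone 2 pair. The share of CX3CL1 moved the other way, from 40.7% to 30.2%, from 35.1% to 16.8% and from 30.6% to 18.7%, although its own level was higher after knockdown in each line.

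**Figure D5:**
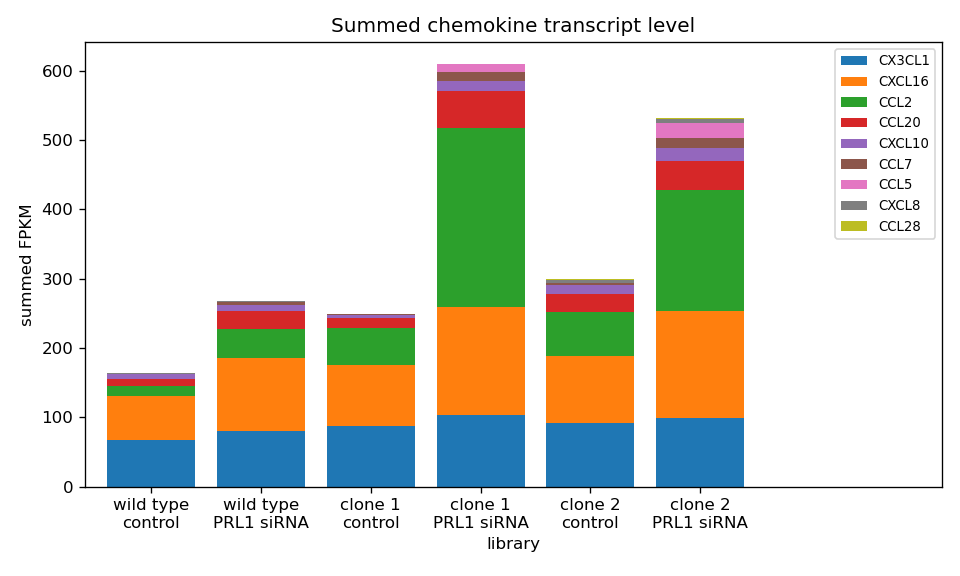
Stacked FPKM of the 9 detected chemokines in each library, from an axis starting at 0. The sum is higher after PRL1 siRNA in each line, at 268, 610.4 and 532 FPKM, and CCL2 (green) takes 42.2% of it in the knockdown library of clone 1.

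Receptors for these ligands were low or listed at 0, apart from ACKR3. Of 23 chemokine receptor genes, 2 were tested and 10 were listed at 0 in all libraries, including CCR2 (for CCL2 and CCL7), CCR1 (for CCL5), CCR6 (for CCL20), CXCR3 (for CXCL10) and CXCR4 (for CXCL12). CX3CR1, the fractalkine receptor, did not exceed 0.00124 FPKM, CXCR1 and CXCR2, which bind CXCL8, did not exceed 0.0197 and 0.00594 FPKM, and CCR10, which binds CCL28, did not exceed 0.0706 FPKM. CXCR6, the receptor of CXCL16, lay between 0.804 and 1.53 FPKM and did not pass after knockdown (-0.08 ± 0.09 log2 units, limma adjusted p = 0.476). ACKR3, a scavenging receptor for CXCL12, differed by line: the wild-type pair had 8.40 and 23.1 FPKM, the clone 1 pair 1.04 and 9.74, and the clone 2 pair 0.00999 and 0.0105, control first. Its mean knockdown difference of 1.25 ± 0.42 log2 units did not pass (limma adjusted p = 0.0621).

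Other chemokines were mostly low or listed at 0, apart from CCL17. Of 31 further symbols 21 were in the files, 6 of these were listed at 0 throughout, and 3 were tested. CCL17, a ligand of CCR4, lies next to CX3CL1 in the same assembly. Its level was below both membrane-bound ligands in the wild-type libraries and above both in the clone control libraries. In the clone knockdown libraries it lay between CX3CL1 and CXCL16. The wild-type pair had 42.5 and 65.6 FPKM, the clone 1 pair 101 and 131, and the clone 2 pair 141 and 143, control first. Its knockdown difference (0.34 ± 0.11 log2 units) did not pass (limma adjusted p = 0.0546), and neither did its higher baseline in the clones (1.47 log2 units, adjusted p = 0.25). CCL25, a thymic and gut chemokine, rose by 0.40 ± 0.10 log2 units (adjusted p = 0.024) from 1.19, 0.827 and 0.973 FPKM under control siRNA, which average just under the filter, so this call too depends on its knockdown libraries. CCL27, a skin chemokine, was at -0.17 ± 0.07 (adjusted p = 0.107).

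Among regulators of chemokine transcription, 12 of 18 genes rose and 2 fell, with a median of 0.27 log2 units, where 17.6% of all tested genes were called higher and 21.7% lower. This list too was chosen with earlier results of these data known. The inhibitors TNFAIP3, which encodes A20, and NFKBIA, which encodes IκBα, rose by 1.09 ± 0.06 and 1.30 ± 0.07 log2 units (limma adjusted p = 0.0012 and 0.00127). NFKB2, a subunit of the noncanonical NF-κB pathway, rose by 0.67 ± 0.05 and the AP-1 gene FOS by 0.62 ± 0.05 (adjusted p = 0.00156 and 0.00169). RELA, the main activating subunit, was at -0.01 ± 0.05 (adjusted p = 0.892). The members that fell were IRF7, an interferon regulator (-0.66 ± 0.07, adjusted p = 0.00225), and JUN (-0.55 ± 0.12, adjusted p = 0.0201). RELA, IRF7 and JUN are named after their values were seen.

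Genes that act on chemokine mRNA or protein included rises and falls, beside 17.6% and 21.7% of all tested genes. Of 6 genes of mRNA decay, 2 rose and 2 fell. ZFP36 and ZC3H12A, which encode proteins that promote decay of inflammatory transcripts, rose by 0.58 ± 0.08 and 0.55 ± 0.05 log2 units (limma adjusted p = 0.00486 and 0.00184), and ZFP36L2 and KHSRP, also decay factors, fell by 0.35 ± 0.06 and 0.22 ± 0.04 (adjusted p = 0.00896 and 0.0148). Of 6 tested genes of ligand release and binding, 1 rose and 2 fell, a share near the background. RHBDF1 and RHBDF2 encode the iRhoms, partners of the sheddase ADAM17. RHBDF1 rose by 0.35 ± 0.06, RHBDF2 fell by 0.24 ± 0.06 and ADAM10, a sheddase of CX3CL1 and CXCL16, fell by 0.19 ± 0.04 (adjusted p = 0.00724, 0.0333 and 0.0118). ADAM17, named after its value was seen, was at 0.01 ± 0.03 (adjusted p = 0.88).

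Most of the cytokines listed as inducing chemokines were scarce, but LIF was at 3.63 to 8.46 FPKM, CSF1 at 2.29 to 8.29 and CSF2 at up to 3.54. Of 13 genes, 4 were tested, of which IL6 rose by 1.38 ± 0.23 and CSF1, the macrophage growth factor, by 1.05 ± 0.16 log2 units (limma adjusted p = 0.00817 and 0.00696), and LIF and CSF2 did not pass. IL6 was at 0.248, 0.0939 and 0.825 FPKM under control siRNA and at 0.972, 2.55 and 5.27 after knockdown, so like CCL5 it passed the filter only through its knockdown libraries. TNF did not exceed 0.0698 FPKM, IL1B 0.00897 FPKM and IFNB1 0.0474 FPKM in any library, and IFNG, IL17A and IL33 were listed at 0. Of 10 epithelial markers 3 rose and 5 fell, with a median of -0.06 log2 units, against the same 17.6% and 21.7% of all tested genes.

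Genes with the pattern most like each of the 3 most abundant of the 10 chemokines were found by Pearson's r of log2(FPKM + 1) over the 6 libraries, among 734 named genes that varied by at least 1 log2 unit. The libraries share lines and treatments, so r is given as a description. Among those closest to CXCL16 were GLIS2 (r = 0.987) and SLC43A2 (0.983). For CCL2 they were ANXA3 (0.981), PSMB9 (0.98) and the MHC class I gene DLA-64 (0.977). PSMB9, a subunit of the immunoproteasome, had 28.1 and 35.2 FPKM in the wild-type pair, 46.8 and 80.2 in the clone 1 pair, and 49.8 and 76.8 in the clone 2 pair, control first. For CX3CL1 they were DYDC1 (0.99), ANXA3 (0.986) and TNFRSF14 (0.98). ANXA3, an annexin, was thus near both CCL2 and CX3CL1, at 6.30 FPKM in the wild-type control library and 16.0 in the knockdown library of clone 1.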

How the data were processed

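The authors deposited FPKM values, 1 per gene symbol and library, per the file headers. Tools named in the submitters' processing notes are Cufflinks 2.2.1, HISAT2 2.1.0 and Cuffdiff. Build, annotation and strand setting were not given in the sources used here, and coordinates are left out. Names and neighbouring genes come from RefSeq (UU_Cfam_GSD_1.0), which held 38797 of 41401 symbols and all 10 chemokines. Absolute depth is unknown. The commonest ratio of values below 0.1 FPKM put relative depth at 0.768 to 0.917 of the wild-type control library. No libraries were identical.

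Values were analysed as log2(FPKM + 1), which understates changes of low genes, with limma 3.58.1 in R 4.3.3 (moderated variances, intensity trend), for genes averaging at least 1 FPKM. P-values were adjusted by Benjamini-Hochberg over 12125 genes. The 3-line fit had the line as covariate and 2 residual degrees of freedom. Clone contrasts came from a 4-group fit of all libraries, also with 2. Clone numbers pair libraries because they name the same clone (r = 0.595 between deviations from group means). The procedure was tested on simulated data. Members and lists were chosen with earlier results of these data known. Named genes were all members, up to 4 per list by smallest p in the 3-line fit, matching receptors, PTP4A1 and 3 similar genes for each of the 3 most abundant members. Other genes, among them EPCAM, ADAM17, PTP4A2 and those given only as low or listed at 0, were named after their values were seen. Some genes that these rules name are not reported here.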

Additional observations from a re-analysis of the deposited data

How the results depend on the processing

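In the 3-line comparison no chemokine changed direction under any alternative. The 7 calls became 1 (CXCL16) with all 27931 genes above 0 tested (1179 genes called), 0 with no line term, that is no replicate block (416 called), and 4 without clone 1; over the leave-one-out fits the chemokine count was 4 to 7 and the count of all genes 1709 to 4037, against 4762. A filter on the control libraries, chosen after seeing the data, dropped CCL5 and left 6 calls. With the clone number as replicate block, the clone knockdown count went from 0 to 4037 genes and from 0 to 7 chemokines. Clone baselines gave 165 genes with no filter and 4 with no intensity trend, and the interaction 157 and 4, with 0 chemokines in each. When 1 mutant library was left out, sign changes occurred in values that had not passed: in the clone knockdown CXCL8 ranged from -0.64 to 1.24; in the interaction CXCL8 ranged from -0.78 to 1.10, CXCL16 from -0.030 to 0.11 and CCL20 from -0.51 to 0.35; and in the baselines CXCL10 ranged from -0.69 to 0.67 and CCL5 from -0.037 to 0.62. With a pseudocount of 0.1, genes at least 2-fold higher or lower numbered 176, 259 and 213 in wild type, clone 1 and clone 2. With the pseudocount of 1 they numbered 105, 147 and 115. Chemokines at least 2-fold higher numbered 4, 5 and 3, against 3, 5 and 3 with the pseudocount of 1. The causes were not tested. Absolute depth is unknown, so the counting error of values below 1 FPKM cannot be given.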

Other observations

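These values were singled out after they were seen and were not tested. The ratio of CCL2 to CCL7 in FPKM was lower after knockdown in each line. It was 14.5 and 9.48 in the wild-type pair and 39.8 and 20.6 in the clone 1 pair, control first. In the clone 2 pair it was 20.9 and 12.3. The CCL7 level under control siRNA was as low as 1.02 FPKM. Whether the neighbouring genes changed by different factors was not tested.

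Clone 2 also held most of the IL1A transcript, an alarmin of damaged epithelium, with 0.933 FPKM in its control library and 1.77 in its knockdown library, against 0.0653 to 0.325 FPKM in the other 4 libraries. CCL4, an inflammatory CC chemokine, was at 0.717 and 2.34 FPKM in clone 2, at 0.298 in the wild-type knockdown library and listed at 0 in the other 3. Both follow CXCL8 and CCL28 in being highest in clone 2.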
